A study of Mus musculus with 8 samples.

Results

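Interferon-stimulated antiviral genes were followed in mouse macrophages during the hours after lipopolysaccharide (LPS), an outer membrane component of Gram-negative bacteria that TLR4 recognises. The starting list named 43 genes. A gene was measured here when the platform annotation gave it a probe set with 1 gene symbol, and the brightest of these probe sets, by mean over the 8 arrays, stood for it. Of the 43, 39 qualified, out of 18193 genes with such a probe set, and all 39 were among the 12540 genes bright enough to be tested. Isg15, Oas1g, Ifi44 and Ifi205 had no such probe set and were not analysed here, except for their promoters.

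The cells were peritoneal macrophages of mice given thioglycollate, whose injection recruits macrophages to the abdominal cavity, and they received LPS at 100 ng/ml. The groups were wild type and Zc3h12a-/- at 0 h (unstimulated), 1 h, 2 h and 4 h of LPS, with 1 Affymetrix array for each genotype and time and no replicate. Zc3h12a encodes Regnase-1, an RNase that cuts mRNAs of inflammatory genes. The sources used here do not give the background strain, sex or age of the mice, how many mice stand behind an array, or how the allele was made.

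The brighter of 2 Zc3h12a probe sets read between 6.12 and 8.87 on the log2 scale in wild type and between 6.73 and 8.75 in the cells labelled knockout. It is not known here whether these probe sets lie in the deleted part, so they check nothing about the labels, and the arrays are called labelled knockout. The 9 tested macrophage markers had a summed level, taken on the linear scale and given as log2, of 15.05 to 15.19 in wild type and 15.04 to 15.23 in labelled knockout. Single markers did differ between genotypes in limma's fit over the 4 times, Adgre1 by 0.71 (adjusted p = 0.00873), Itgam by 0.90 (adjusted p = 0.0453) and Fcgr1 by -0.87 (adjusted p = 0.00606), as labelled knockout minus wild type. The array medians lay between 3.14 and 3.21, and background, the highest of 27 bacterial control probe sets, between 2.96 and 3.26. These are bulk samples, in which fewer cells of a type and less RNA per cell cannot be told apart.

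Type I interferons are secreted when a cell senses microbial products. They bind a receptor made of Ifnar1 and Ifnar2, and the receptor signals to transcription factors in the nucleus, STAT2 and IRF9 among them. These bind the interferon-stimulated response element (ISRE) in the promoters of many genes whose products sense viral RNA, degrade it, block its translation or hold virus particles at membranes. In macrophages LPS triggers Ifnb1 through the adaptor TRIF and the factor IRF3, and IRF3 can also act directly on some of the same elements.

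Promoter sequences are shown because the genes were grouped by this shared regulation. A RefSeq table (build GRCm38.p6) held windows for 32 of the 43 listed genes, 40 windows in all, each from 250 bases before to 50 after an annotated start. The ISRE core, spelled GAAA, any 2 bases, GAAA, was searched on both strands. It was found in 18 of the 40 windows (45%) and in 3.44% of all 32851 windows of the table. By gene it was present in 16 of the 32. These were Bst2, Ddx58, Ddx60, Eif2ak2, Ifi205, Ifih1, Ifit1, Ifit1bl1, Ifit3, Ifitm3, Isg15, Oas1a, Oas1g, Oas3, Rsad2 and Trim30a. The following stretches come from 3 genes that were higher 1 h after LPS (Ifit1, Ifit3 and Rsad2) and 3 that were not (Oas3, Bst2 and Ifit1bl1). Capitals mark the ISRE core, which reads as paired TTTC blocks where it lies on the opposite strand, and each line runs 5′ to 3′ on the strand of the gene.
Ifit1, chr19:34640773-34640825, plus strand: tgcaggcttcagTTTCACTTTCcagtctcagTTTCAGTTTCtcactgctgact
Ifit3, chr19:34583361-34583428, plus strand: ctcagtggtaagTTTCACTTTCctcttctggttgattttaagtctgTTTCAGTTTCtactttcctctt
Rsad2, chr12:26456551-26456584, minus strand: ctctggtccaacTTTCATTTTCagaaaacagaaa
Oas3, chr5:120777713-120777746, minus strand: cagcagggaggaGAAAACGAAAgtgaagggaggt
Bst2, chr8:71537575-71537614, minus strand: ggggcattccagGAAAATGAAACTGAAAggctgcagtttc
Ifit1bl1, chr19:34602051-34602084, minus strand: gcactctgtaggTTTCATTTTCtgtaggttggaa

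Matches began 104 bases before the annotated start in Ifit1, 156 in Ifit3, 120 in Rsad2, 75 in Oas3, 130 in Bst2 and 104 in the Ifit1bl1 window shown. Ifit1 and Ifit3 each held 2 separated matches, and the 2 matches of Bst2 overlapped. Over all listed genes the matches formed 19 stretches, 13 of which began before the start and 6 after it, and 8 held more than 1 match. The stretches of Oas1a and Oas1g, neighbouring genes, were identical. The interferon gamma activated site TTCNNNGAA lay in 8 of the 40 windows (20%, against 8.30% of all windows), and in Bst2 and Ifitm3 it overlapped an ISRE core. An NF-kB site form, spelled GGGA, any base, TTTCC, was in 0 of the 40 windows and in 0.411% of all. Windows were not given for Mx1, Mx2, Oas2, Usp18, Dhx58, Ifi204, Zbp1, Parp9, Parp14, Rtp4 and Tor3a. A match is a description of letters in a window, not a binding site or a cause.

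Interferon signalling genes are given before the antiviral genes, in 4 lists. All differences are on the log2 scale, with limma's standard error (SE) and a p-value adjusted over all 12540 genes. Runs of 4 values are ordered by time, from 0 h to 4 h. Of the ligands and receptor chains, 4 could be tested, and 1, 3 and 2 of them rose at 1, 2 and 4 h, with 0 falling at any time. Ifnb1, which encodes interferon beta, read 2.90, 6.34, 4.87 and 2.83 in wild type and 2.88, 6.79, 4.24 and 2.92 in labelled knockout. It was thus at background at 0 h and 4 h in both genotypes and highest at 1 h. The difference was at least 11.7-fold at 1 h (adjusted p = 0.000412) and at least 2.92-fold at 2 h (adjusted p = 0.00264). In such bounds a dim array counts with its background. The receptor chains rose by 4 h, Ifnar1 by 1.43 (SE 0.16) and Ifnar2 by 0.95 (SE 0.14), and Ifna1 did not pass at any time.

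**Figure D1:**
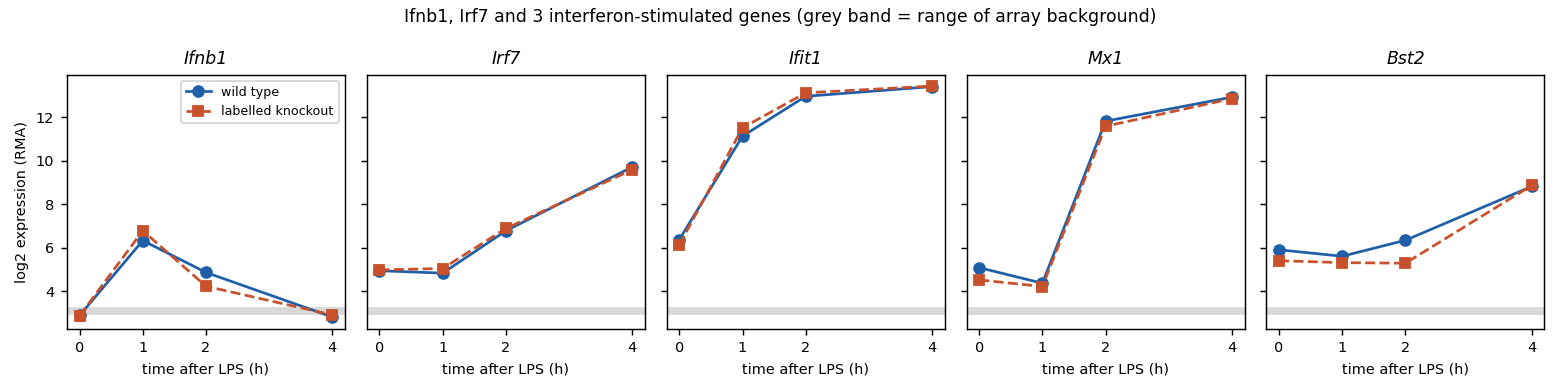
Log2 expression (y axis) against hours after LPS (x axis) for Ifnb1, Irf7, Ifit1, Mx1 and Bst2, 1 point per array, wild type as blue circles and labelled knockout as orange squares, with the range of array background in grey. Ifnb1 peaked at 1 h and was back at background at 4 h, Ifit1 was high from 1 h, Mx1 from 2 h and Bst2 at 4 h.

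Of 9 genes on the path from TLR4 to interferon, 2, 5 and 5 rose at 1, 2 and 4 h, and 1 fell, at 2 h. Irf7, the factor that amplifies interferon production, read 4.95, 4.84, 6.78 and 9.72 in wild type and 4.99, 5.05, 6.89 and 9.59 in labelled knockout. The co-receptor gene Cd14 rose by 2.52 (SE 0.16) at 1 h and the kinase gene Ikbke by 1.25 (SE 0.14) at 4 h, while Tlr4 itself fell by 1.62 at 2 h. Of 7 genes of receptor signalling, 1, 3 and 4 rose at 1, 2 and 4 h and 3 fell at 2 h. Irf1 rose by 2.71 (SE 0.23) at 1 h, Irf9 by 1.34 (SE 0.12) at 2 h and Stat2 by 3.29 (SE 0.20) at 4 h. Among 4 genes linked to cytosolic nucleic acid sensing, Samhd1 (2.48) and Aim2 (1.22) rose by 4 h and Mavs fell by 0.81. At 2 h both Mavs (-1.21) and Pycard (-1.06) fell. In limma's fit over the 4 times, Ikbke (-0.70, adjusted p = 0.00881) and Irf5 (-0.54, adjusted p = 0.0148) were lower in labelled knockout. No other gene of the 4 lists passed between genotypes, where 8.72% of all tested genes were lower and 4.75% higher.

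After LPS the antiviral genes moved almost as a whole, but late. At 1 h, 9 of the 39 rose and 1 fell, with a median difference of 0.06, against -0.09 for all genes tested. At 2 h, 38 rose, 0 fell and the median was 2.25, and at 4 h all 39 rose and the median was 4.08. The medians of all genes were -0.16 and -0.12 at those times. Among all tested genes, 3.85% rose and 6.62% fell at 1 h, 12% rose and 29.8% fell at 2 h, and 14.4% rose and 29.4% fell at 4 h. Each of these tests took the 2 genotypes as the samples of a time, so the p-values rest on how far the genotypes' time courses departed from each other. The gap between 3′ and 5′ control probe sets of Actb, which reflects RNA quality, narrowed from 0 h to 4 h. It went from 2.64 to 2.16 for wild type and from 3.11 to 2.30 for labelled knockout. The same gap of Gapdh went from 3.01 to 2.98 for wild type and from 3.31 to 2.90 for labelled knockout. The part of these gaps in the LPS differences was not tested. Without the wild-type 0 h array 5 members rose at 1 h, and the fall of Tor3a was lost without the 0 h array of either genotype. The calls kept under every alternative processing tried were those of Ifit1, Oasl1, Rsad2, Ifih1 and Cmpk2 at 1 h, 30 of the 38 at 2 h, and 38 of the 39 at 4 h. The exception at 4 h, Trim25, passed in every refit but rose less than 2-fold, a minimum that was one of the alternatives.

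**Figure D2:**
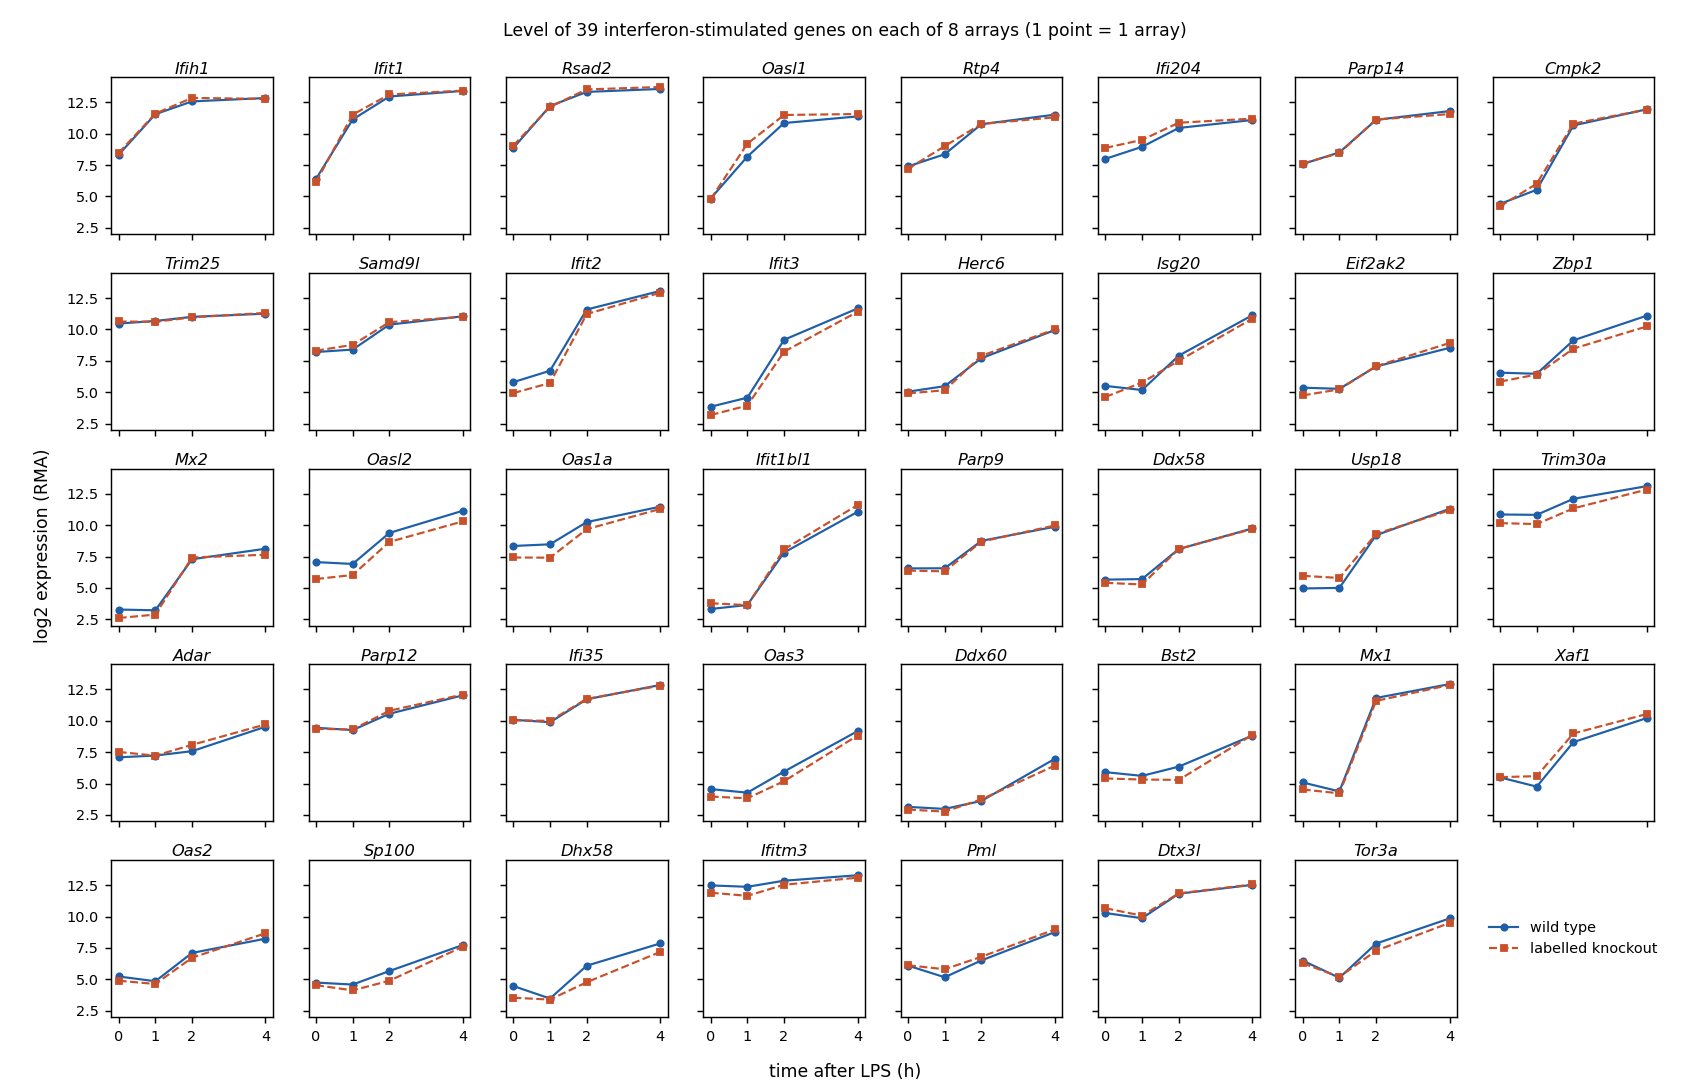
Log2 expression (y axis, RMA) against hours after LPS (x axis) for the 39 measured genes, 1 point per array, wild type as blue circles with solid lines and labelled knockout as orange squares with dashed lines. Panels are ordered by the share of the 4 h log2 rise present at 1 h. Ifih1, Ifit1 and Rsad2 had from 68.6% to 72.2% of their 4 h log2 rise at 1 h. At that time Mx1, Ifit1bl1 and Usp18 were below their 0 h level in at least 1 genotype.

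By the medians, the largest step came between 1 h and 2 h. In that interval 37 of the 39 members rose (7.71% of all genes did), with a median of 2.02, and the exceptions were Bst2 and Trim25. Between 2 h and 4 h a further 30 rose (11.3% of all genes did), with a median of 1.54. At 1 h the members had reached a median of 1.10% of their 4 h log2 rise, from -37.5% in Tor3a to 72.2% in Ifih1. At 2 h the median was 60.4%, from 5.05% in Bst2 to 97.9% in Ifih1. The calls over the intervals fell into few patterns. Of the members, 25 did not pass by 1 h and rose in both later intervals. Ifi204, Ifih1, Ifit1, Oasl1, Rsad2 and Rtp4 rose by 1 h and again by 2 h and did not pass from 2 h to 4 h, whereas Cmpk2, Ifit3 and Parp14 rose in each interval. A missed call in the last interval does not show a plateau, since its differences ranged from 0.09 (Ifih1) to 0.64 (Rtp4) in those 6 genes.

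**Figure D3:**
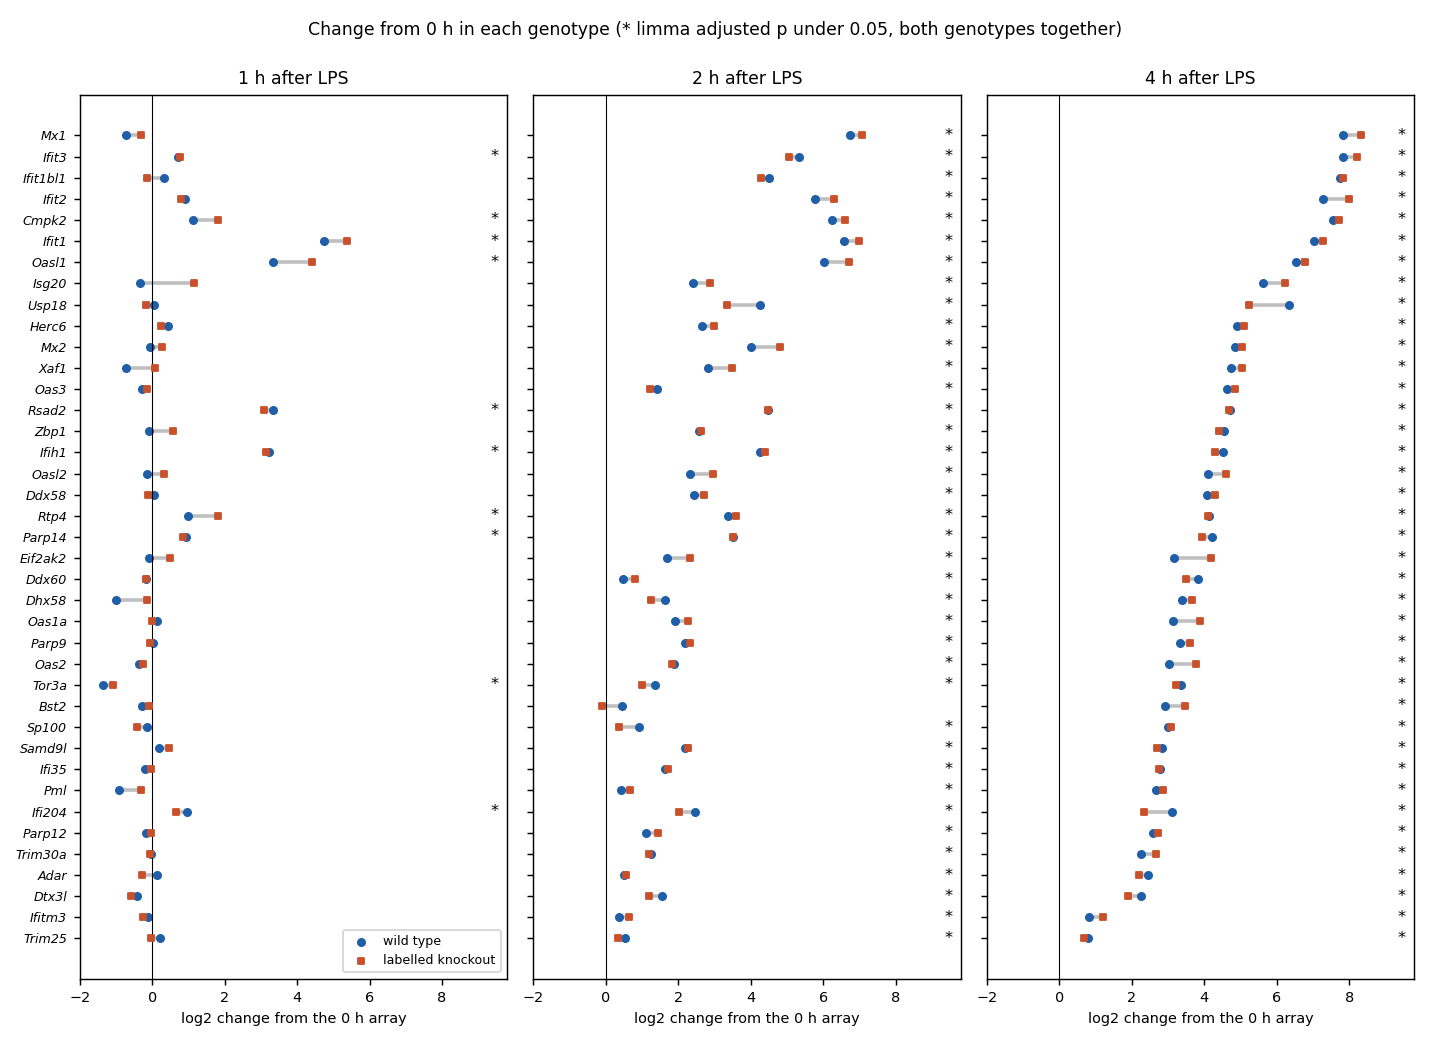
Log2 change from the 0 h array of the same genotype (x axis) for each of the 39 genes (rows) at 1, 2 and 4 h (panels), with wild type as blue circles and labelled knockout as orange squares, and an asterisk where limma's adjusted p over both genotypes was under 0.05. Asterisks mark 10 genes at 1 h, 38 at 2 h and 39 at 4 h. At 2 h and 4 h the genotypes' points of most genes lie close together beside the size of the rise. At 1 h those of some genes lie further apart than the change, as in Isg20 (-0.33 in wild type, 1.15 in labelled knockout).

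The IFIT proteins bind foreign RNA ends and block its translation, and their genes form a cluster in the genome. All 4 measured members rose at 2 h and at 4 h, by a median of 5.62 and 7.70. Ifit1 read 6.38, 11.13, 12.96 and 13.41 in wild type and 6.15, 11.52, 13.12 and 13.43 in labelled knockout. It rose by 5.06 (SE 0.16), 33.4-fold, at 1 h and by 7.16 at 4 h. Its relatives were later. Ifit2 read 5.80, 6.70, 11.58 and 13.06 in wild type and 4.93, 5.73, 11.22 and 12.92 in labelled knockout. Ifit3 read 3.84, 4.56, 9.17 and 11.67 against 3.18, 3.93, 8.23 and 11.40. The difference at 1 h was 0.86 for Ifit2 (adjusted p = 0.062) and 0.74 for Ifit3 (adjusted p = 0.0446). The Ifit3 call was lost without genotype as a block and without any array of 0 h or 1 h (adjusted p up to 0.433). Ifit1bl1, a relative of Ifit1 in that cluster, read 3.32, 3.64, 7.82 and 11.05 in wild type and 3.78, 3.63, 8.07 and 11.60 in labelled knockout. By 4 h it stood 219-fold above 0 h, Ifit2 198-fold and Ifit3 261-fold. Background was 3.06 on the wild-type 0 h array and 2.96 on that of labelled knockout. Ifit1bl1 and Ifit3 began not far above it, so their folds are less certain. IFIT genes are similar in sequence, and the sources used here do not say how far the probe sets tell them apart.

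The oligoadenylate synthetases make a second messenger that activates RNase L, and the related OASL proteins act on RNA sensing and translation. All 5 measured members rose at 2 h and at 4 h. Oasl1, which restrains translation of Irf7, was the only one of the 5 called at 1 h. It read 4.84, 8.18, 10.85 and 11.38 in wild type and 4.79, 9.20, 11.49 and 11.57 in labelled knockout, a rise of 3.88 (SE 0.25) at 1 h. Its neighbour Oasl2 read 7.06, 6.91, 9.38 and 11.15 against 5.71, 6.03, 8.66 and 10.30, and differed by 0.09 at 1 h (adjusted p = 0.793). Adjacent genes thus had different timing. Oas1a read 8.34, 8.47, 10.24 and 11.47 in wild type and 7.42, 7.41, 9.68 and 11.29 in labelled knockout. Oas3 read 4.56, 4.28, 5.96 and 9.18 in wild type and 3.97, 3.82, 5.19 and 8.82 in labelled knockout, with most of its rise after 2 h. Oas2 rose by 1.85 at 2 h and 3.40 at 4 h.

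Mx proteins are GTPases that trap viral nucleoproteins. Mx1 had the largest rise of the 39 genes at 4 h, 8.08 (SE 0.15) or 271-fold, with Ifit3 close to it at 8.03 (SE 0.17). It read 5.09, 4.38, 11.82 and 12.93 in wild type and 4.53, 4.22, 11.59 and 12.86 in labelled knockout. Its readings were thus lower at 1 h than at 0 h in both genotypes (difference -0.51, adjusted p = 0.0827), and 7.40 of the rise came between 1 h and 2 h. Mx2 rose by 4.41 at 2 h and 4.94 at 4 h, and its 0 h and 1 h readings in labelled knockout, 2.60 and 2.87, lay below background.

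Rsad2 encodes viperin, which makes a chain-terminating nucleotide from CTP, and its neighbour Cmpk2 encodes a nucleotide kinase. Rsad2 read 8.86, 12.20, 13.33 and 13.57 in wild type and 9.05, 12.14, 13.53 and 13.72 in labelled knockout. Cmpk2 read 4.41, 5.53, 10.66 and 11.94 against 4.21, 6.02, 10.80 and 11.92. Rsad2 had 68.6% of its 4 h log2 rise at 1 h and Cmpk2 19.2%, shares that would be smaller on the linear scale. This timing depended on the probe set, since the other probe sets of Rsad2 gave 57.7% and 18.1%, and the dimmer one of Cmpk2 2.29%. Isg20, an RNase that degrades viral RNA, read 5.50, 5.17, 7.91 and 11.13 in wild type and 4.62, 5.77, 7.50 and 10.85 in labelled knockout. Its genotypes moved in opposite directions up to 1 h, and it rose by 5.93 (SE 0.32) at 4 h.

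Among the sensors of viral nucleic acid and the RNA-binding effectors, all 8 measured members rose at 2 h and at 4 h, and 2 rose at 1 h. Ifih1 encodes MDA5, a sensor of long viral RNA. It read 8.32, 11.55, 12.57 and 12.84 in wild type and 8.46, 11.60, 12.85 and 12.77 in labelled knockout, a rise of 3.19 (SE 0.12) at 1 h. The other RNA helicases of the family were later. Ddx58, which encodes RIG-I, differed by -0.04 at 1 h and rose by 2.57 at 2 h and 4.18 at 4 h. Dhx58, the regulatory helicase LGP2, read 4.46, 3.47, 6.08 and 7.86 in wild type and 3.53, 3.39, 4.77 and 7.18 in labelled knockout.

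Ifi204, of the family of DNA-binding proteins that includes the sensor IFI16, read 7.99, 8.95, 10.46 and 11.09 in wild type and 8.86, 9.51, 10.87 and 11.20 in labelled knockout. Its call at 1 h (0.80, adjusted p = 0.0446) was lost without genotype as a block and without any array of 0, 1 or 2 h (adjusted p up to 0.291). Zbp1, a sensor of Z-form nucleic acid that can start cell death, read 6.55, 6.46, 9.13 and 11.10 in wild type and 5.84, 6.40, 8.47 and 10.24 in labelled knockout. Eif2ak2 encodes the kinase PKR, which stops translation, and it rose by 2.01 at 2 h and 3.67 at 4 h. Ddx60, a helicase cofactor, was at background on both 1 h arrays and rose at least 1.48-fold from 1 h to 2 h and by 3.02 from 2 h to 4 h. Adar, which edits adenosine in RNA, read 7.09, 7.23, 7.58 and 9.53 in wild type and 7.52, 7.22, 8.09 and 9.71 in labelled knockout.

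The ISG15 cycle attaches the small protein ISG15 to other proteins, and the ubiquitin ligases beside it tune sensor signalling. Usp18, the protease that removes ISG15 and limits receptor signalling, read 4.96, 4.998, 9.20 and 11.29 in wild type and 5.96, 5.79, 9.30 and 11.18 in labelled knockout. Herc6, the mouse ligase for ISG15, read 5.04, 5.48, 7.71 and 9.95 against 4.90, 5.15, 7.90 and 10.002. Neither passed at 1 h (-0.06 and 0.35), and they rose by 5.78 and 5.003 at 4 h. The other enzymes of the cycle also rose at 4 h, Ube2l6 by 3.05 (SE 0.13, adjusted p = 1.77e-05) and Uba7 by 3.34 (SE 0.21, adjusted p = 6.94e-05). Over the 4 times Ube2l6 was lower in labelled knockout (-0.47, limma adjusted p = 0.0219), and Uba7 did not pass (0.23).

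Trim25, a ligase that acts on RIG-I, had the smallest rise at 4 h, 0.73 (SE 0.11). It read 10.47, 10.67, 11.002 and 11.25 in wild type and 10.63, 10.61, 10.96 and 11.31 in labelled knockout. Its other probe sets rose more, by 1.10 and 3.26, and the latter already by 1.72 at 1 h. Trim30a, which restrains TLR signalling, read 10.85, 10.82, 12.10 and 13.11 in wild type and 10.16, 10.08, 11.33 and 12.83 in labelled knockout. Dtx3l, a ligase that works with Parp9, read 10.28, 9.87, 11.82 and 12.52 against 10.66, 10.07, 11.84 and 12.56. The start levels of Trim25, Trim30a and Dtx3l on these log2 scales were far above background, and their 4 h differences of 0.73, 2.47 and 2.07 were among the 5 smallest.

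Genes for PARP proteins, which attach ADP-ribose, rose in 3 of 3 cases at 2 h and at 4 h. Parp14 rose by 0.88 (SE 0.12) at 1 h and 4.08 at 4 h, Parp9 by 3.46 and Parp12 by 2.66 at 4 h. Parp9, Dtx3l and Parp14 are neighbours, and only Parp14 of the 3 was called at 1 h. Both measured nuclear body genes, Pml and Sp100, rose late. Pml read 6.09, 5.16, 6.50 and 8.76 in wild type and 6.12, 5.80, 6.80 and 8.97 in labelled knockout. Sp100 rose by 0.63 at 2 h and 3.03 at 4 h.

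Bst2 encodes tetherin, which holds budding virus at the cell surface. It read 5.91, 5.62, 6.35 and 8.82 in wild type and 5.41, 5.32, 5.30 and 8.87 in labelled knockout, and was the 1 member not called at 2 h (0.16, SE 0.25, adjusted p = 0.626). Bst2 then rose by 3.02 between 2 h and 4 h. Ifitm3, which blocks fusion of virus with endosomes, was already bright. It read 12.48, 12.37, 12.86 and 13.29 in wild type and 11.90, 11.65, 12.53 and 13.10 in labelled knockout, and rose by 1.00 at 4 h.

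The remaining members were Xaf1, Rtp4, Samd9l, Ifi35 and Tor3a. Rtp4, a chaperone of membrane receptors, rose by 1.39 (SE 0.22) at 1 h and 4.12 at 4 h. Samd9l, a translation inhibitor, and Ifi35 rose by 2.77 and 2.76 at 4 h. Tor3a, an ATPase of the endoplasmic reticulum, was the member that fell at 1 h. It read 6.49, 5.12, 7.85 and 9.85 in wild type and 6.28, 5.19, 7.28 and 9.49 in labelled knockout, a fall followed by a rise in both. The fall of 1.23 (SE 0.16, adjusted p = 0.00683) was smaller on its other probe sets, -0.42 and -0.18, and was not called when the 0 h array of either genotype was left out.

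Presence of the ISRE core was set beside timing as a description. Of the 6 genes called higher at 1 h that had a promoter window, 4 held a match (Ifih1, Ifit1, Ifit3 and Rsad2), and of the 22 other measured genes with a window 9 did. Among the genes outside the list that rose at 4 h, 6.29% held a match, against 2.73% of those that fell and 3.82% of all tested genes with a window. In Ifih1 the match lay after the annotated start, 33 bases in. Ifit1bl1 and Ifit1 both had a match that began 104 bases before a start, and their differences at 1 h were 0.09 and 5.06.

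On the probe sets used, the median member differed far less between the labelled genotypes than between 0 h and 4 h of LPS. The other Xaf1 probe set, described below, went against this (-5.15 between genotypes, 2.08 at 4 h). On average over the 4 times 7 of the 39 members were lower in labelled knockout and 0 were higher, where 8.72% of all tested genes were lower and 4.75% higher. The median difference of the members was -0.06, beside -0.04 for all genes. Those that passed were Oasl2 (-0.95, SE 0.12, adjusted p = 0.00618), Oas1a (-0.68, SE 0.15, adjusted p = 0.0362), Ifit3 (-0.63, SE 0.12, adjusted p = 0.0226), Trim30a (-0.61, SE 0.11, adjusted p = 0.0173), Zbp1 (-0.57, SE 0.14, adjusted p = 0.0464), Oas3 (-0.54, SE 0.09, adjusted p = 0.0175) and Ifitm3 (-0.45, SE 0.11, adjusted p = 0.0437). The array values given above show all 7 lower in labelled knockout at each of the 4 times. The calls rest on these same values, so the shared sign is no separate support. None of the 7 differed 2-fold on average. The groups of 4 arrays overlapped for each of them, and the 4 h LPS difference was larger than the genotype difference in each. The count of lower members was 1, Oasl2, when any array of 0 h or 2 h was left out. It was 4 when an array of 1 h was, namely Oas3, Oasl2, Zbp1 and Dhx58, the last not among the 7. It was 0 without time as a block, a fit in which the LPS differences count as error.

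**Figure D4:**
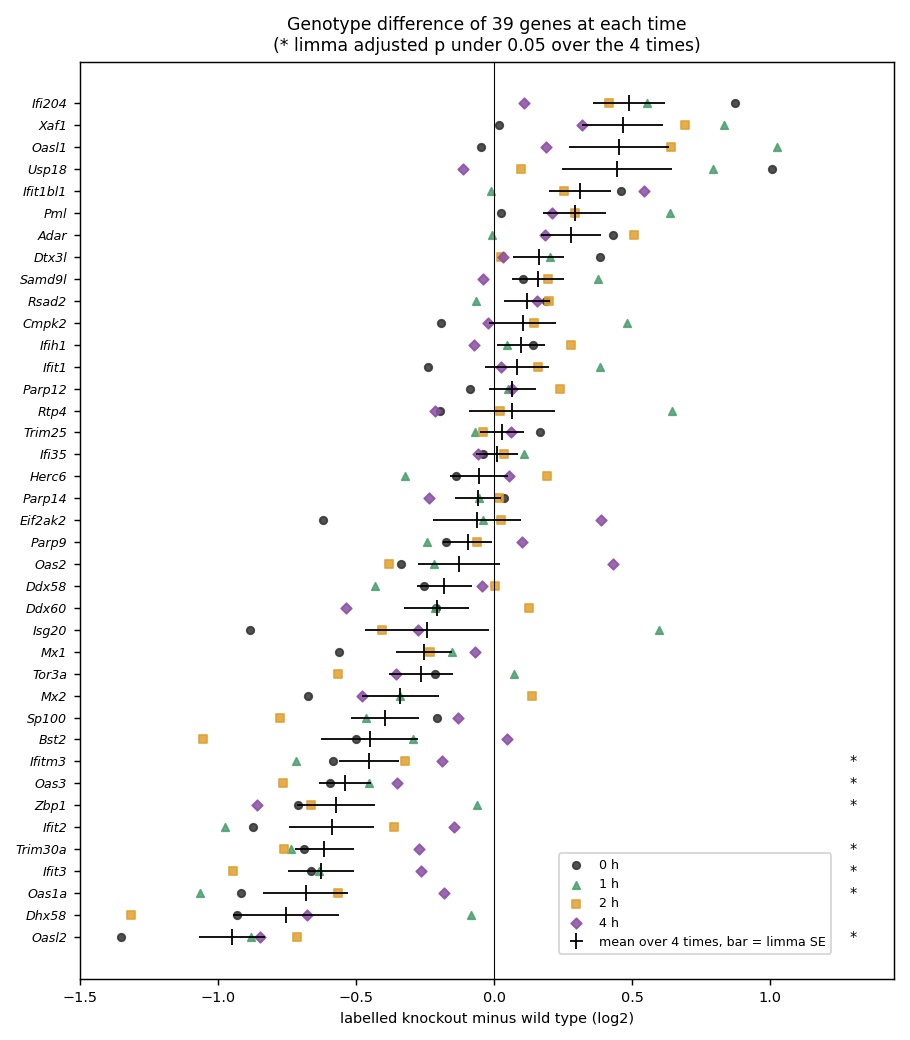
Labelled knockout minus wild type in log2 units (x axis) for the 39 genes (rows) at 0, 1, 2 and 4 h (black circles, green triangles, yellow squares and purple diamonds), with the mean over the 4 times as a vertical tick, limma's SE as a horizontal bar, and an asterisk where the adjusted p was under 0.05. The 7 asterisks all lie on the negative side, from Oasl2 at -0.95 to Ifitm3 at -0.45, and the points of single times spread widely around many means.

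The largest of these, Oasl2, was 1.35 lower at 0 h and 0.88, 0.71 and 0.85 lower at 1, 2 and 4 h. It was the 1 call left when only the arrays after LPS were used, and it passed in 15 of 16 refits. It did not pass in the fit without time as a block (adjusted p = 0.968), and it fell short of a 2-fold minimum. Dhx58 (-0.75, adjusted p = 0.0519) and Ifit2 (-0.59, adjusted p = 0.0566) just missed the threshold. On the other side, Ifi204 differed by 0.49 (adjusted p = 0.0587), Xaf1 by 0.47 (adjusted p = 0.0866), Oasl1 by 0.45 (adjusted p = 0.146) and Usp18 by 0.45 (adjusted p = 0.184). Members of the same family thus stood on both sides, with Oasl1 above 0 and its neighbour Oasl2 below it. Over 1, 2 and 4 h alone, the lowest means were those of Oasl2 (-0.81), Dhx58 (-0.69), Ifit3 (-0.61) and Oas1a (-0.60), and the highest those of Xaf1 (0.62), Oasl1 (0.62), Pml (0.38) and Ifi204 (0.36). In the fit to these 6 arrays alone, Oasl2 passed and no other member did.

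By sign, 11 members were lower in labelled knockout at all 4 times, 4 were higher at all 4 (Ifi204, Xaf1, Dtx3l and Pml) and 24 changed sign. Of all tested genes, 24.5% were lower at all 4 times and 14.8% higher. The 2 arrays of a single time give values without a test. The median size of the members' difference, sign aside, was 0.34, 0.34, 0.28 and 0.19 over the 4 times, against 0.22, 0.18, 0.24 and 0.21 for all genes. Differences of at least 2-fold were seen for Oasl2 and Usp18 at 0 h, Oas1a and Oasl1 at 1 h, and Dhx58 and Bst2 at 2 h. These are 2, 2, 2 and 0 of the 39 members over the 4 times. Of all tested genes 3.78%, 3.37%, 4.81% and 3.88% were that far apart, so such counts do not set the members apart. Usp18 was 1.01 higher at 0 h and 0.11 lower at 4 h. Oas1a was 1.06 lower and Oasl1 1.03 higher at 1 h, and by 4 h the differences were -0.18 and 0.19.

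Whether LPS altered the genotype difference was tested with a separate term, which compared 1, 2 and 4 h with 0 h. No member passed, 0 of 39, and 0% of all genes did. At an unadjusted p under 0.05 there were 2 members, Eif2ak2 (0.74, SE 0.25) and Oasl2 (0.54, SE 0.19), each with an adjusted p of 1.00, where 434 of all 12540 genes had an unadjusted p that low. This fit had 2 residual degrees of freedom, and a change confined to 1 time counts as error in it. On simulated data it recovered far fewer of the genes changed by 1 log2 unit than the other simulated comparisons did.

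Other measures also differed between genotypes in these arrays. Of 9 resident peritoneal macrophage markers 8 were higher in labelled knockout, with a summed level of 11.36 to 11.78 in wild type and 13.44 to 13.62 in labelled knockout, and 0 of them were at background on all arrays. Of 7 tested mesothelial and stromal markers 6 were lower, with summed levels of 10.47 to 10.90 against 8.86 to 9.48, and Msln and Krt19 were at background on all 8 arrays. Of 5 tested markers of plasmacytoid dendritic cells, which make much interferon, 1 was lower, Spib (-0.62), and the summed levels were 8.86 to 9.85 and 8.64 to 9.84. The summed levels of B cell markers were 6.51 to 6.64 in wild type and 8.88 to 9.54 in labelled knockout, with 1 of 4 called higher and Pax5 at background on all arrays. Those of conventional dendritic cell markers were 10.61 to 10.96 and 9.56 to 9.74, with 1 of 3 called lower and Xcr1 at background. The Actb gap between 3′ and 5′ control probe sets was 2.16 to 2.64 in wild type and 2.30 to 3.11 in labelled knockout. It was larger in labelled knockout at each time. The Gapdh gap was larger in labelled knockout only at 0 h (3.31 against 3.01). At 1, 2 and 4 h it was smaller there (2.95, 3.04 and 2.90 against 2.99, 3.16 and 2.98). The part of these marker and control measures in the genotype differences of the antiviral genes was not tested.

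Agreement between probe sets of a gene bears on these values. The 39 members had 69 probe sets, 19 members had several, and 9 of the probe sets used carry a suffix that marks several matching transcripts. Of 30 probe sets not used, 28 were above background on at least 4 arrays, and all 28 were higher at 4 h than at 0 h in both genotypes. A probe set could pass on LPS arrays alone, as the other one of Ddx60 did, so part of this agreement was built in. Some rises were also small, as in the dimmest Ddx58 probe set, which went from 3.01 to 3.27 in labelled knockout. The genotype difference was less uniform. The brighter Xaf1 probe set read 5.49, 4.76, 8.30 and 10.22 in wild type and 5.51, 5.59, 8.997 and 10.54 in labelled knockout. The other read 6.82, 6.60, 9.41 and 10.79 in wild type and 3.24, 3.02, 3.35 and 3.43 in labelled knockout, a mean difference of -5.15, close to or at background on all labelled-knockout arrays. Xaf1 encodes a protein that antagonises inhibitors of apoptosis, and its 2 probe sets thus gave opposite genotype differences. With the mean of its probe sets Xaf1 was called lower, and with trend and robust settings in limma, on the probe set used, it was called higher.

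**Figure D5:**
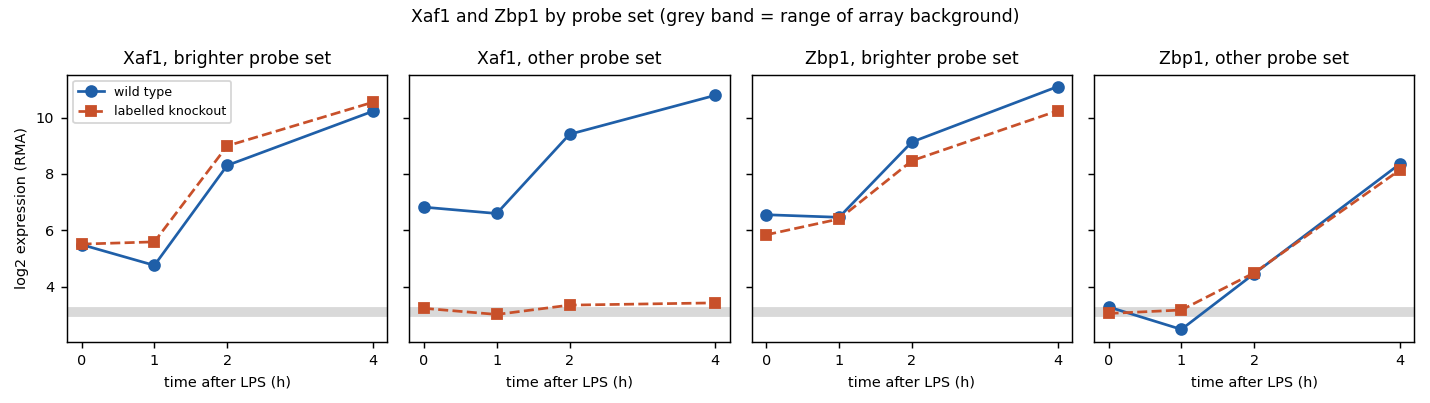
Log2 expression (y axis) against hours after LPS (x axis) for each probe set of Xaf1 and Zbp1, 1 point per array, wild type as blue circles and labelled knockout as orange squares, with the range of array background in grey. Brighter refers to the mean over the 8 arrays. The other Xaf1 probe set stays between 3.02 and 3.43 in labelled knockout and reaches 10.79 in wild type. The one titled brighter rises in both genotypes and lies below the other in wild type.

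Zbp1 also depended on the probe set. Its dimmer one had a mean genotype difference of 0.068 (adjusted p = 0.816 when it stood for the gene), against -0.57 for the brighter. A further probe set of Herc6 was 0.91 higher in labelled knockout, where the one used differed by -0.05. The other probe set of Trim30a was 0.23 higher in labelled knockout at 0 h. Its mean difference was -0.23, against -0.61 for the one used. The values of Xaf1, Zbp1, Herc6 and Trim30a on their other probe sets were chosen for display after they had been seen. So were the array values of Rsad2, Ifih1 and Bst2.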

How the data were processed

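RNA from 8 samples was hybridised to Affymetrix arrays, 1 for each genotype and time. The authors deposited log2 values of 45101 probe sets, made with RMA (background correction, quantile normalization, probe summary) per the submitters' processing notes. The sources used here do not give its version. Quantile normalization hides a change in total mRNA. Probe sets with 1 symbol in the platform annotation were used, 1 per gene. A gene was tested when its second-highest array reached 3.16, the median of all values. Differences were fitted with limma 3.58.1 in R 4.3.3, with genotype and time as additive factors, 3 residual degrees of freedom, Benjamini-Hochberg adjustment over 12540 genes and a threshold of 0.05. Each fit was tested on simulated data, where most changes of 1 log2 unit were recovered for the times against 0 h and for genotype. Few were recovered for the genotype difference after LPS. The steps from 1 h to 2 h and from 2 h to 4 h were not simulated. Motifs were searched with Python 3.11.15. Precision is limited by the number of arrays, and p-values measure the spread between these arrays only.

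Array values were printed for the 10 largest and 5 smallest changes at 4 h, members called between genotypes or falling at 1 h, and the 4 highest and 4 lowest means over 1, 2 and 4 h. Of each pathway list, genes of smallest p were named. The members, lists and rules were chosen with earlier results of these data known. Alternatives were other scalings, filters, probe set rules, limma settings, blocks, a 2-fold minimum and leaving out each array.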

Additional observations from a re-analysis of the deposited data

How the results depend on the processing

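Replicates could not be paired, because the labels give no replicate numbers and each group has 1 array. The main fits did match arrays, by time for the genotype test and by genotype for the LPS tests. At 1 h the count of falling members was 3 with a filter at the 75th percentile and 4 with trend and robust settings. Leaving out 1 array at a time gave 5 to 9 rising and 0 to 2 falling members at 1 h, 1.80 to 2.11 for the median from 1 h to 2 h and 1.29 to 1.64 for that from 2 h to 4 h. It gave 0 to 1 higher and 1 to 5 lower members between genotypes. The median rise at 4 h was 4.30 after centring on housekeeping genes and 3.54 with the mean of all probe sets. Between genotypes 1 member was higher after cyclic loess, 1 with the 75th percentile filter, 1 with the mean of probe sets and 2 with trend and robust settings. The count of lower members was 0 without the time block, 1 with only 1, 2 and 4 h, and 0 with a 2-fold minimum. Of the 7 genotype calls 0 were kept in every alternative. The 2-fold minimum alone settled this, since 0 members differed 2-fold between genotypes. Zbp1 reversed to 0.068 (adjusted p = 0.816) without probe sets that carry a suffix. Without a 0 h array the test of a changed genotype difference could not be fitted. The cause of these shifts was not tested.

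With housekeeping centring the all-gene median at 4 h was 0.10 in place of -0.12. In the deposited values 3 of 9 housekeeping genes fell at that time. The share of higher genes among all calls was 36.8%, 28.6% and 32.9% at 1, 2 and 4 h. It was 50.1%, 39.6% and 41.9% after cyclic loess and 53.1%, 44.3% and 52.7% after centring. Between genotypes it was 35.3%, 46.7% and 26.8% in that order.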

Other observations

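Other interferon-inducible genes were counted for comparison. Of 34 measured interferon-stimulated genes outside the antiviral list, 4 rose and 4 fell at 1 h, 21 rose at 2 h and 32 at 4 h, with median differences of -0.11, 1.02 and 3.06. Cxcl10, a chemokine for T cells, rose by 6.84 (SE 0.14) at 1 h, and the schlafen gene Slfn2 by 3.60. Between genotypes 4 of the 34 were higher and 7 lower in labelled knockout, among them Ifi27l2a at -4.09 (SE 0.25) and Slfn8 at 0.65 (SE 0.08). Of 10 guanylate binding and immunity related GTPase genes, which act on vacuoles that hold microbes, 9 rose at 2 h and at 4 h. Between genotypes 5 of the 10 were higher and 0 lower, with a median of 0.58. Gbp8 differed by 2.27 (SE 0.28) and Iigp1 by 1.90 (SE 0.34). Whether these lists differ from the antiviral genes was not tested.

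All 16 measured NF-kB early targets rose at 1 h and at 2 h, and 15 rose at 4 h, with medians of 4.32, 4.23 and 3.85. Of 6 negative regulators of interferon signalling, 3 rose at 1 h and 5 at 4 h. Cish and Socs3, which encode inhibitors of cytokine receptor signalling, rose by 3.45 and 3.28 at 1 h, and Cish was 1.67 (SE 0.22) higher in labelled knockout over the 4 times.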
